A study of Mus musculus with 14 samples.

Results

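Cells labelled AP and sorted as CD9-high were compared with AP cells sorted as CD9-low, both taken from the dermis of mouse wounds. The comparison holds 4 of the 14 RNA sequencing libraries of the series, chosen by their labels, with 2 libraries in each group. The mice of both groups were C57/BL6 males aged 7 weeks, their wound beds were sampled on day 5, and the labels give no genotype or drug treatment. Both belong to the 8 libraries that the labels mark as analysed again from an earlier series, together with CD29 and DN libraries (2 each), which here serve as points of reference for the level of a gene. The labels do not spell out AP or DN, and nothing used here states the gates that separated CD9-high from CD9-low. Both gates carry the label numbers 2 and 4, and the main fit did not pair libraries of the same number. The labels do not say whether a shared number means shared animals. Whether replicates are separate animals, and how many animals were pooled, is not in the labels either. The p-values therefore reflect sample-to-sample spread alone, and that spread may be technical.

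CD9 is a tetraspanin, a small protein that crosses the membrane several times and gathers integrins and other surface proteins into clusters. In fat tissue, CD9 is used to divide progenitor cells, and its abundance has been linked to a matrix-producing state. Wounded dermis holds fibroblasts, precursors of fat cells with surface markers such as CD34 and SCA-1, contractile myofibroblasts, and many macrophages. A sorted population can therefore be checked against the genes of each of these cells.

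Total counts of the 4 libraries lay between 20311636 and 21019634, and genes of the mitochondrial genome took 0.19% to 0.27% of them. Levels are given as CPM, the count of a gene scaled to a common library size with TMM factors of edgeR. The collagen genes Col3a1, Col1a2 and Col1a1 and the matrix protein gene Sparc were the 4 most abundant genes among the 8 that ranked in the top 10 of every AP library. Col3a1, the chain of type III collagen, stood at 78120 and 66660 CPM in the CD9-low libraries and at 78020 and 66630 CPM in the CD9-high libraries.

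Across genes, the 2 CD9-low libraries correlated at 0.948 (Pearson r on log2 CPM with 0.5 added) and the 2 CD9-high libraries at 0.959. Pairs that crossed the gate correlated at 0.942 to 0.961. Replicates were thus no more alike than libraries of the other gate. Genes are not independent replicates, and these values describe the libraries.

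The gene behind the gate was checked first. Cd9 stood at 48.1 and 45.5 CPM in the CD9-low libraries and at 134 and 174 CPM in the CD9-high libraries. Both CD9-high libraries lay above both CD9-low libraries, and the log2 fold change was 1.72 (SE 0.27, adjusted p = 0.0317, edgeR quasi-likelihood test with Benjamini-Hochberg adjustment over all genes tested). Cd9 RNA therefore went the way of the sorting label. The call was lost when any 1 of the 4 AP libraries was left out (log2 fold change 1.53 to 1.88, adjusted p 0.157 to 0.569). CD29 libraries held 199 and 183 CPM and DN libraries 213 and 200 CPM, so that Cd9 was lowest in the CD9-low AP libraries among the 4 groups. The antisense gene models that overlap Cd9 could not be separated from it, since no source used here gives the strand setting of the counting.

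Other usual sorting markers were high in both gates, although the labels do not tie them to AP. Ly6a, which encodes SCA-1, stood at 1658 and 1953 CPM in CD9-low and at 1145 and 1678 CPM in CD9-high. Pdgfra, the receptor that marks most fibroblasts, had 290 and 264 CPM in CD9-low and 305 and 229 CPM in CD9-high. Their values overlapped between the gates. Cd34 held 792 and 919 CPM in CD9-low and 531 and 717 CPM in CD9-high, without overlap, at a log2 fold change of -0.46 (SE 0.30, adjusted p = 1, edgeR). Dpp4, which encodes CD26, stood at 181 and 225 CPM against 167 and 185 CPM, and Itgb1, which encodes CD29, at 656 and 590 CPM against 666 and 584 CPM. Adipoq, the gene of the fat cell hormone adiponectin, was at 0 in all 4 libraries.

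Of 18394 genes tested, 4 passed an adjusted p of 0.05, or 0.0217% of all genes tested. Rac1, Cilp and Cd9 were higher in CD9-high cells (0.0163%), and Pcdhgc4 was lower (0.00544%). Without adjustment, 439 genes were higher (2.39%) and 234 lower (1.27%) at a p under 0.05. A share of 0.05 of genes would pass this threshold if no gene differed and the p-values were uniform. Both CD9-high libraries lay above both CD9-low libraries in 2989 genes (16.2%) and below them in 1977 genes (10.7%), and these shares are the background for every such count given here. The median log2 fold change over all genes was 0. Among the 7683 genes with a mean of at least 10 CPM in the AP libraries, 18.8% were higher and 13.4% lower without overlap. Of the same genes, 131 were more than 1 log2 unit higher (1.71%) and 91 more than 1 log2 unit lower (1.18%), whatever their test.

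**Figure D1:**
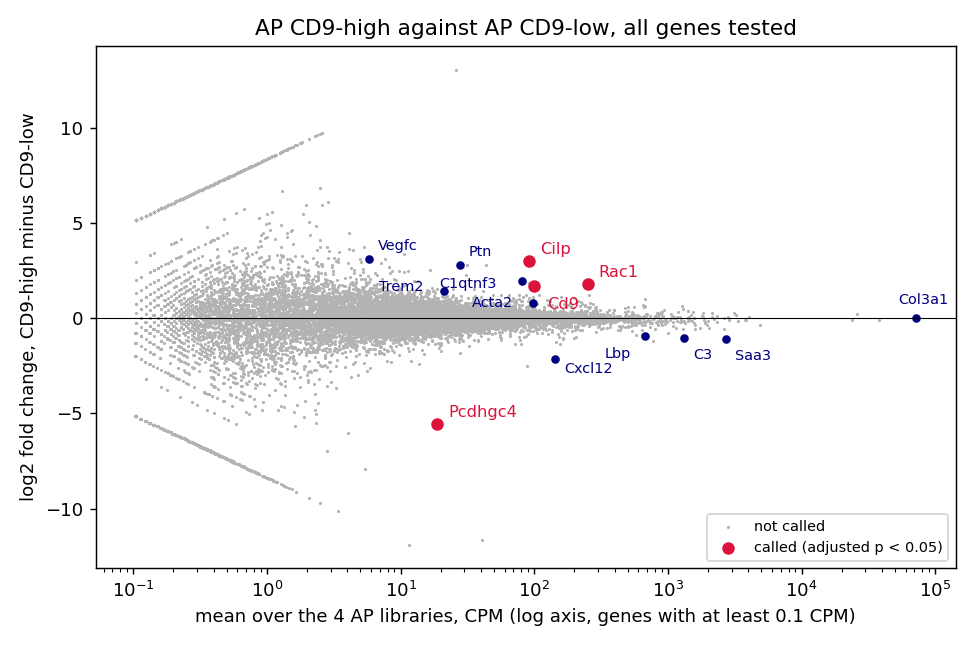
Log2 fold change of CD9-high against CD9-low AP cells (y axis) against the mean CPM of the 4 AP libraries (x axis, log scale), one point a gene. The 4 called genes are in red, and genes described in the text that were not called are in blue. Col3a1, the most abundant gene, lies at a log2 fold change of 0.

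Rac1, a small GTPase that drives actin-rich protrusions at the edge of a moving cell, had the smallest p. It stood at 103 and 122 CPM in CD9-low and at 378 and 405 CPM in CD9-high. CD29 libraries held 388 and 399 CPM and DN libraries 326 and 331 CPM, which places CD9-high with them and leaves CD9-low apart. The log2 fold change between the gates was 1.797 (SE 0.20, adjusted p = 0.00205, edgeR). Rac1 lies on chromosome 5 at 143503634 to 143528036 (mm10) and overlaps Daglb on the other strand. Daglb had 21.5 and 23.2 CPM in CD9-low and 19.2 and 22.6 CPM in CD9-high, far below Rac1 and with overlapping values. Without the second CD9-low library Rac1 had an adjusted p of 0.0505, and with the 4 AP libraries fitted alone 0.208.

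The close relatives of Rac1 did not part with the gate. Rac2, the form of blood cells, was at 10.1 and 8.27 CPM in CD9-low and at 10.96 and 9.20 CPM in CD9-high. Rac3 had 12.4 CPM in each CD9-low library and 11.8 and 16.2 CPM in CD9-high. In the newly deposited part of the series, Rac1 was at 65.8 and 70.3 CPM in cells traced by Adipoq and at 454 to 621 CPM in the Adipocyte and CD26 libraries. Genes of the mitochondrial genome took 18.4% to 84.8% of the counts in that part, against 0.19% to 0.27% in the AP libraries. Levels in that part therefore depend on the scaling and are not directly comparable with those of AP.

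Cilp encodes a secreted matrix protein of cartilage and fibroblasts. Its levels were 31.1 and 9.995 CPM in CD9-low and 187 and 140 CPM in CD9-high, a log2 fold change of 2.99 (SE 0.44, adjusted p = 0.0198, edgeR). CD9-high libraries also exceeded CD29 libraries, at 36.6 and 70.0 CPM, and DN libraries, at 85.7 and 101 CPM. The 2 CD9-low libraries were themselves far apart, and Cilp was not called when either CD9-high library or the second CD9-low library was left out (log2 fold change 2.41 to 3.21, adjusted p 0.0573 to 0.328). Cilp lies on chromosome 9 at 65265180 to 65280605 (mm10) and overlaps no other annotated gene.

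Pcdhgc4 is one of the protocadherin gamma genes, which encode adhesion proteins and share their last exons. It was at 24.5 and 49.4 CPM in CD9-low and at 1.57 and 0 CPM in CD9-high, a log2 fold change of -5.55 (SE 0.76, adjusted p = 0.0042, edgeR). The 26 gene models that overlap it make the call uncertain, because reads of shared exons can be given to any of them. Summed over the 22 protocadherin gamma genes of the table, the level was 126 and 157 CPM in CD9-low and 200.5 and 77.9 CPM in CD9-high. The summed values overlapped, so the difference in Pcdhgc4 was not seen in the sum. Without the second CD9-high library Pcdhgc4 had an adjusted p of 0.127, and without the second CD9-low library 0.10; without the first CD9-high library the fitted log2 fold change was -12.56, against a lone CD9-high library at 0. Pcdhgb1, another member, went the other way, at 0 in both CD9-low libraries and 2.64 and 7.44 CPM in CD9-high.

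**Figure D2:**
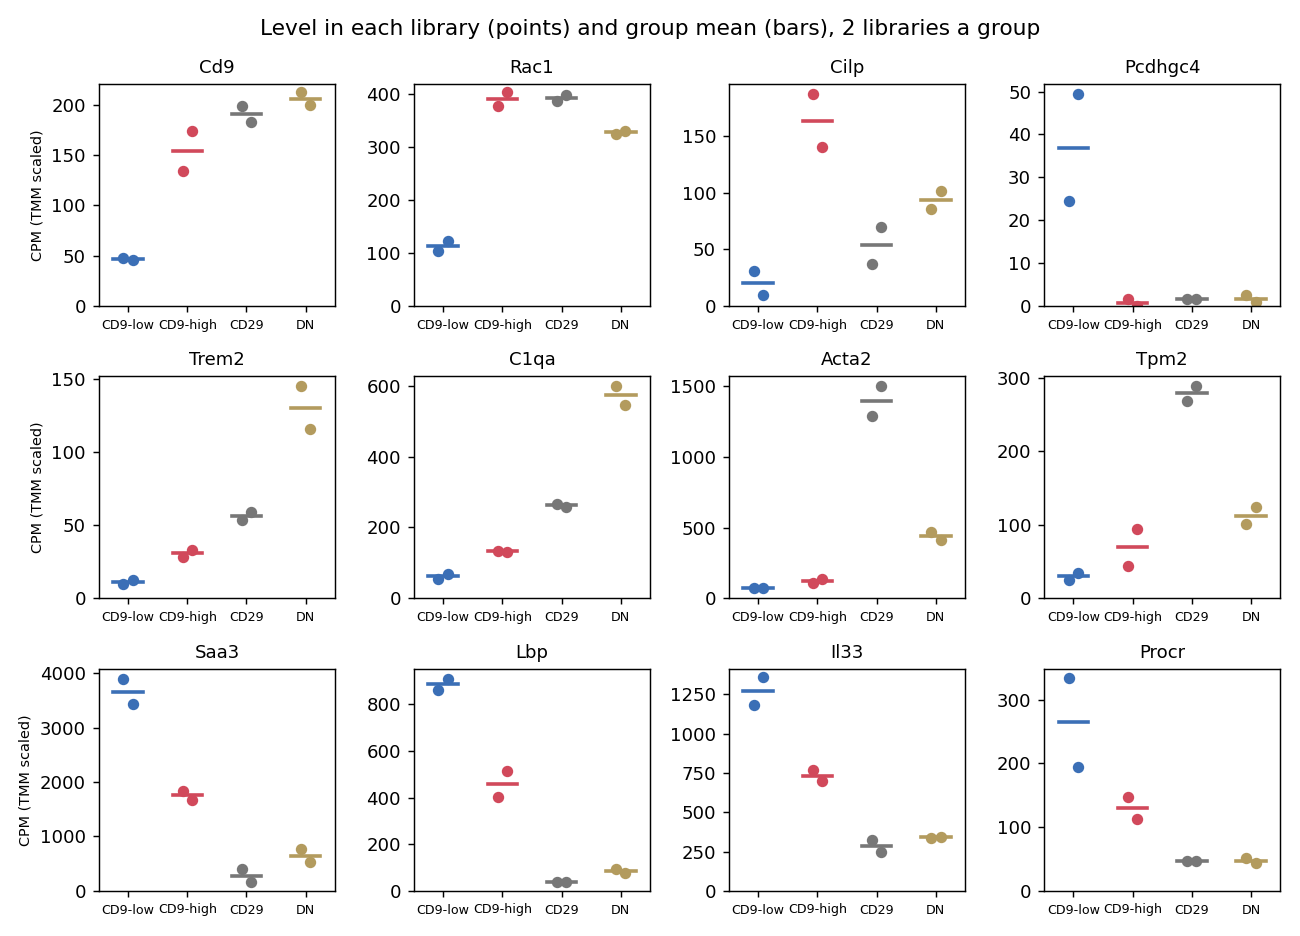
Level in each library (points, CPM, linear axes from 0) and mean of each group (bars) for 12 genes in CD9-low AP, CD9-high AP, CD29 and DN cells, 2 libraries a group. For Trem2, C1qa, Acta2, Tpm2, Saa3, Lbp, Il33 and Procr, the CD9-high mean lies between the CD9-low mean and those of CD29 and DN; for Cilp it lies above all others.

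Genes close to the threshold were mostly higher in CD9-high cells. They are given here as values, since edgeR called none of them with all libraries in the fit, and they were chosen after their values were seen. Ptn, the secreted heparin-binding growth factor pleiotrophin, had 5.73 and 8.12 CPM in CD9-low and 62.7 and 34.5 CPM in CD9-high (log2 fold change 2.81, SE 0.51, adjusted p = 0.118, edgeR). C1qtnf3, which encodes a secreted relative of adiponectin, had 48.4 and 17.5 CPM against 136 and 124 CPM (log2 fold change 1.98, SE 0.39, adjusted p = 0.29). Thbs4, a thrombospondin of tendon, had 40.2 and 38.0 CPM against 208 and 79.8 CPM (log2 fold change 1.88, SE 0.38, adjusted p = 0.38). In each of these genes the gates did not overlap. Aqp1, a water channel, and Tbc1d5, a regulator of vesicle traffic, followed at the same adjusted p of 0.38, with log2 fold changes of 2.28 (SE 0.47) and 2.44 (SE 0.51). DESeq2 called all 5, at adjusted p of 0.00562 for Ptn, 0.0308 for C1qtnf3, 0.0276 for Thbs4, 0.0377 for Aqp1 and 0.000841 for Tbc1d5. With 1 library left out, edgeR called Thbs4 without the second CD9-high library (adjusted p = 0.0472) and C1qtnf3 without the first CD9-low library (adjusted p = 0.0476).

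Genes that came closest in the other direction, also chosen after their values were seen, included Lbp, Cyp1b1 and Scn7a. Lbp, which binds bacterial lipopolysaccharide, had 862 and 909 CPM in CD9-low and 402 and 515 CPM in CD9-high (log2 fold change -0.95, SE 0.26, adjusted p = 0.96, edgeR). Cyp1b1, a microsomal oxidase, had 199 and 213 CPM against 104 and 70.2 CPM (log2 fold change -1.24, SE 0.32, adjusted p = 0.92). Scn7a, a sodium channel, had 85.7 and 66.4 CPM against 42.9 and 30.2 CPM (log2 fold change -1.06, SE 0.33, adjusted p = 1). The gates did not overlap in any of these genes. In CD29 cells they were lower still, at 36.6 and 38.8 CPM for Lbp, 41.8 and 28.8 CPM for Cyp1b1 and 13.0 and 7.40 CPM for Scn7a.

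Among 36 gene lists, 23 by role and 13 of cell type markers, Cd9 was the single member called by edgeR. No other list member was called by edgeR, whereas DESeq2 called 8 members, namely Cd9, Lipe, Fmod, Trem2, Cspg4, Cma1, Tpsb2 and Cpa3. Of these, Lipe, Fmod, Cspg4, Cma1, Tpsb2 and Cpa3 were at 0 in both CD9-low libraries. Lists are therefore described by how many members did not overlap between the gates, beside the 16.2% higher and 10.7% lower of all genes, and by their median log2 fold change. None of these counts is a test.

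**Figure D3:**
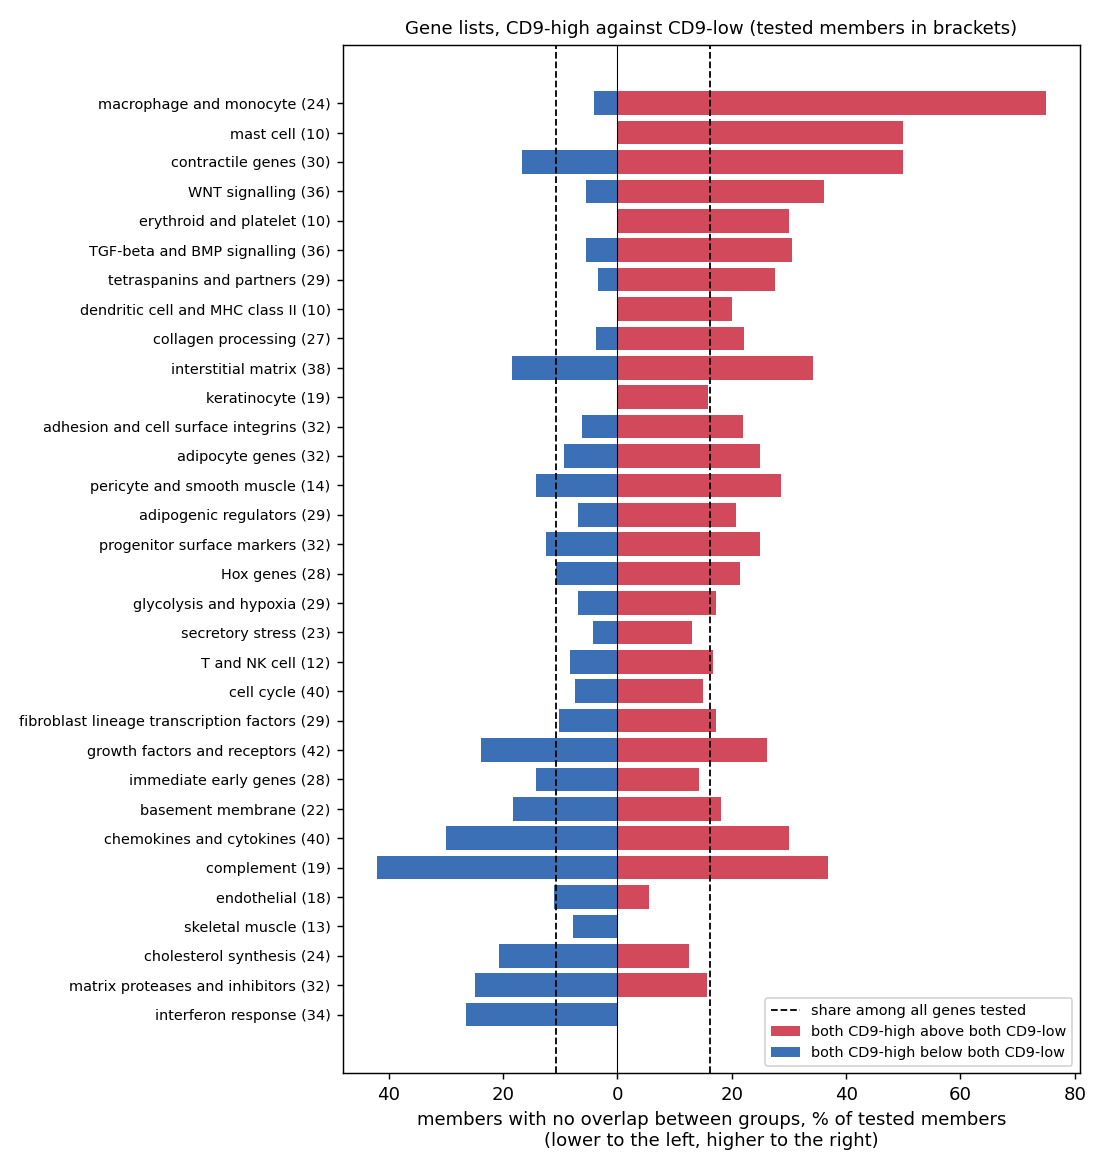
Share of tested members with no overlap between the gates, for each list with at least 10 tested members (number in brackets): higher in CD9-high cells to the right, lower to the left. Dashed lines mark the shares among all genes tested, 16.2% and 10.7%. Macrophage and monocyte markers reach 75% on the right, and interferon response genes have 0 on the right and 26.5% on the left.

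Markers of macrophages and monocytes stood farthest from the background. Of 24 members, 18 lay higher without overlap (75%) and 1 lower, and the median log2 fold change was 0.77. Their summed level was 1619 and 1670 CPM in CD9-low and 2872 and 2557 CPM in CD9-high, a ratio of the means of 1.65, while CD29 libraries held 5171 and 4722 CPM and DN libraries 11950 and 10600 CPM. No marker of the list was at 0 in any AP library. In bulk samples, more cells of a type and more RNA per cell cannot be told apart. No member was called by edgeR, 10 had an unadjusted p under 0.05, all higher, and DESeq2 called Trem2 (adjusted p = 0.0142).

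The defining members lay on the same side. Trem2, a lipid receptor of tissue macrophages, had 9.99 and 12.9 CPM in CD9-low and 28.5 and 33.0 CPM in CD9-high (log2 fold change 1.43, SE 0.34, adjusted p = 0.84, edgeR). Lyz2, the lysozyme of myeloid cells, had 499 and 386 CPM against 1048 and 761 CPM (log2 fold change 1.03, SE 0.31). Adgre1, which encodes F4/80, had 23.7 and 20.9 CPM against 59.2 and 40.5 CPM (log2 fold change 1.16, SE 0.36). The exception was Plac8, at 186 and 287 CPM in CD9-low and 137 and 161 CPM in CD9-high. Mrc1, Cd163, Ccr2 and Ly6c2 overlapped between the gates.

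The summed markers of mast cells, of red cells and platelets, and of neutrophils were also higher without overlap, whereas the sums of T and NK cells, B cells and dendritic cells overlapped between the gates. EdgeR called no member of these lists. Mast cell markers summed to 11.6 and 5.02 CPM in CD9-low, 18.4 and 19.7 CPM in CD9-high and 397 and 439 CPM in DN. Of the mast cell proteases, Cma1 was at 0 in both CD9-low libraries and at 2.03 and 3.14 CPM in CD9-high. This was 45.5-fold against a floor of 3 counts over the CD9-low group, which covers counting error only and gives no lower limit. Tpsb2, Cpa3 and Mcpt4 were also at 0 in both CD9-low libraries. DESeq2 called Cma1 (adjusted p = 0.0075), Tpsb2 (0.00977) and Cpa3 (0.0308). Markers of red cells and platelets summed to 119.5 and 118.9 CPM in CD9-low and to 226 and 219 CPM in CD9-high. The largest member was Pf4, the platelet chemokine also made by macrophages, at 55.5 and 77.4 CPM against 122 and 134 CPM. The red cell genes Hbb-bs, at 32.7 and 13.1 CPM against 48.8 and 31.4 CPM, and Hba-a1 overlapped between the gates. The less abundant Hbb-bt was higher without overlap. Neutrophil markers summed to 53.3 and 38.3 CPM against 84.1 and 54.5 CPM, with 2 of 9 members higher without overlap and 1 lower. Endothelial, pericyte, keratinocyte and Schwann cell sums overlapped between the gates.

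**Figure D4:**
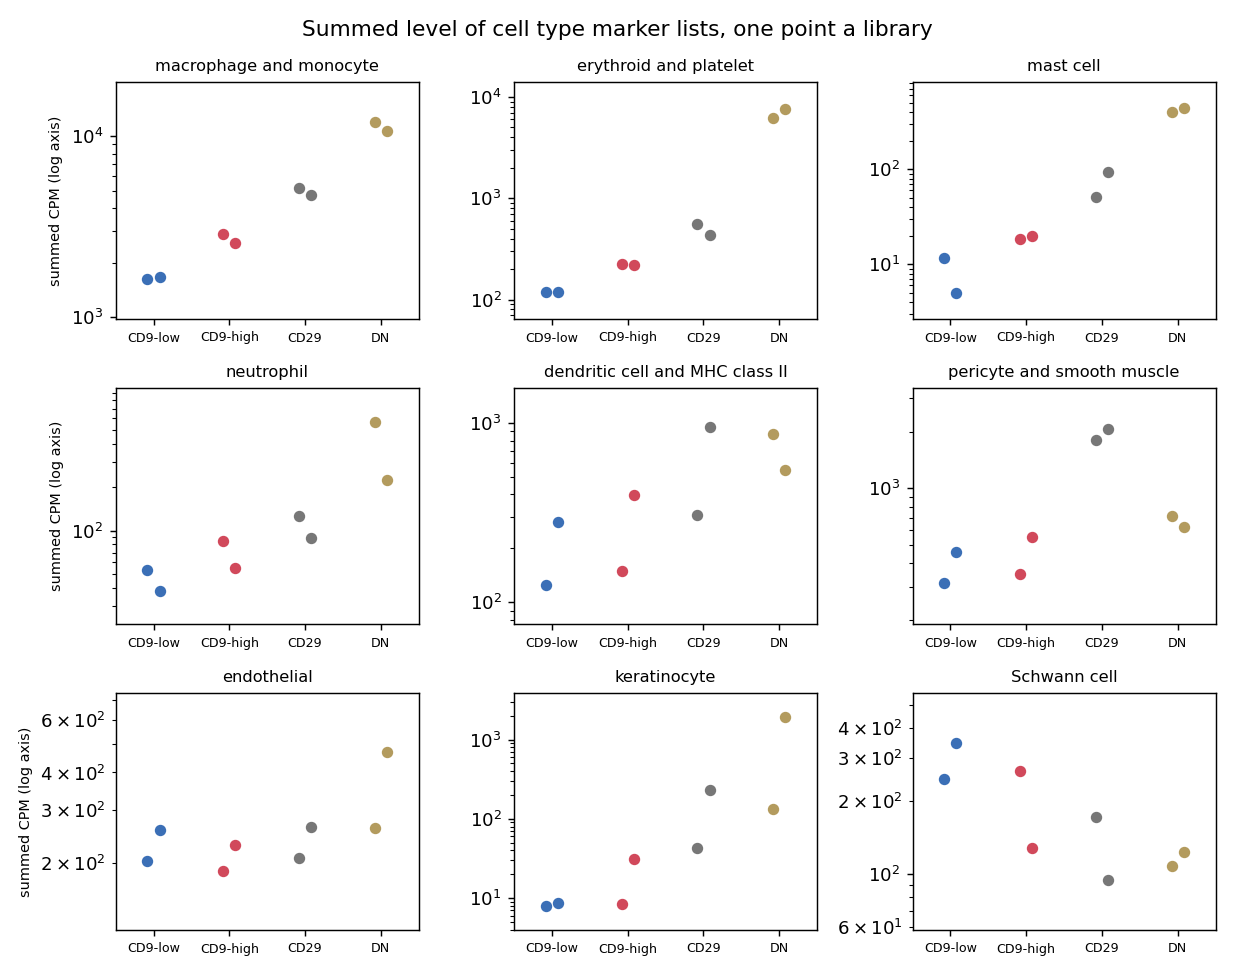
Summed CPM of 9 marker lists in each library (log axes), one point a library, in CD9-low AP, CD9-high AP, CD29 and DN cells. The macrophage sum is 1619 and 1670 CPM in CD9-low and 2872 and 2557 CPM in CD9-high, below the CD29 and DN libraries; the endothelial sums overlap between the gates.

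The tetraspanins and their partners held 8 of 29 members higher without overlap (27.6%), Cd9 among them, and 1 lower. Without Cd9, 7 of 28 were higher. Cd53, a tetraspanin of blood cells, had 37.4 and 33.7 CPM in CD9-low and 49.4 and 60.3 CPM in CD9-high. Ptgfrn, an immunoglobulin-like protein that binds CD9, had 27.9 and 29.6 CPM against 41.0 and 47.1 CPM. Cd81, a close relative of Cd9, was more abundant, at 234 and 261 CPM against 272 and 273 CPM, with a log2 fold change of 0.14 (SE 0.23). The macrophage sum was also higher in the CD9-high libraries, by 1.65 times, and its part in Cd53 was not tested.

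Among 32 surface markers used to sort fibroblast and fat progenitors, 8 were higher (25%) and 4 lower (12.5%) without overlap, and the median was 0.0012. The 4 lower ones were Procr, Pi16, Il33 and Cd34. Procr, the protein C receptor, had 334 and 195 CPM in CD9-low and 147 and 113 CPM in CD9-high (log2 fold change -1.02, SE 0.30, adjusted p = 1, edgeR). Pi16, a marker of a reservoir of fibroblasts around vessels and in fascia, had 799 and 1351 CPM against 306 and 640 CPM. Il33, an alarmin cytokine kept in the nucleus of stromal cells, had 1184 and 1359 CPM against 770 and 697 CPM (log2 fold change -0.79, SE 0.23). All 4 were far lower in CD29 libraries, where Pi16 had 21.7 and 39.5 CPM.

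Higher members of the same list included F3, Cd44 and Thy1. F3, tissue factor, had 225 and 189 CPM in CD9-low and 303 and 332 CPM in CD9-high. Cd44, the hyaluronan receptor, had 219 and 186 CPM against 337 and 274 CPM. Neither was called, and Cd44 is also expressed by leukocytes.

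Regulators of fat cell formation held 6 of 29 higher (20.7%) and 2 lower without overlap. Pparg, the master regulator, had 0 and 0.689 CPM in CD9-low and 5.08 and 1.57 CPM in CD9-high, close to the limit of detection. The summed level of the list was 1541 and 1716 CPM against 1646 and 1701 CPM, which overlapped.

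Genes of mature fat cells held 8 of 32 higher (25%) and 3 lower (9.38%), with a median of 0. Plin2, which coats lipid droplets in many cells, had 63.0 and 61.3 CPM in CD9-low and 96.9 and 85.6 CPM in CD9-high. Fabp5 and Cd36, carriers of fatty acids, had 16.8 and 15.9 CPM against 27.8 and 26.8 CPM, and 25.7 and 36.7 CPM against 54.8 and 45.7 CPM. Each of these 3 genes was higher again in the DN libraries, at 113 to 303 CPM, and the macrophage sum was higher in the same libraries; its part was not tested. Mgll, a lipase, went the other way at 65.0 and 107 CPM against 33.9 and 55.9 CPM.

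Interstitial matrix genes held 13 of 38 higher (34.2%) and 7 lower (18.4%), with a median of 0.19, or 0.0195 without the first CD9-high library. Type VI collagen was the most regular: Col6a3 had 586 and 475 CPM in CD9-low and 838 and 753 CPM in CD9-high (log2 fold change 0.58, SE 0.20, adjusted p = 1, edgeR), and Col6a1 and Col6a2 were higher without overlap as well. Col5a3, a minor fibril collagen chain, had 1094 and 893 CPM against 1520 and 1623 CPM. Spp1, osteopontin, had 167 and 92.0 CPM against 301 and 237 CPM and is also a macrophage product. The macrophage sum was higher in the same libraries, and its part was not tested.

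The small proteoglycans of the list were split. Dcn, decorin, had 5641 and 5309 CPM in CD9-low and 4077 and 4458 CPM in CD9-high, and Ogn, osteoglycin, had 495 and 552 CPM against 333 and 402 CPM. Bgn, biglycan, lay higher, at 1117 and 1005 CPM against 1532 and 1123 CPM. Fmod, fibromodulin, was at 0 in both CD9-low libraries and at 1.53 and 3.53 CPM in CD9-high, and was called by DESeq2 (adjusted p = 0.000637) and not by edgeR. Lum, lumican, and Aspn, asporin, had log2 fold changes of 0.095 (SE 0.24) and -0.037 (SE 0.23). The summed level of the matrix list overlapped between the gates, at 197300 and 184000 CPM against 200400 and 185800 CPM.

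In the basement membrane list, 4 of 22 were higher and 4 lower (18.2% each). Nid1, nidogen, had 927 and 953 CPM in CD9-low and 734 and 745 CPM in CD9-high. Lama4, a laminin chain, had 290 and 295 CPM against 232 and 204 CPM. The enzymes of collagen processing held 6 of 27 higher and 1 lower, among them P3h1, a prolyl hydroxylase, at 106 and 77.6 CPM against 188 and 154 CPM.

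Proteases and their inhibitors held 5 of 32 higher (15.6%) and 8 lower (25%), with a median of -0.11. Mmp3, stromelysin, had 1609 and 1126 CPM in CD9-low and 1055 and 837 CPM in CD9-high. Timp1, a secreted inhibitor of metalloproteases, had 1946 and 2158 CPM against 1836 and 1682 CPM. Adamts5, which cleaves proteoglycans, had 171 and 189 CPM against 109 and 142 CPM. None of the 32 reached an unadjusted p of 0.05.

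Contractile genes held 15 of 30 higher without overlap (50%) and 5 lower (16.7%), with a median of 0.32. Acta2, smooth muscle actin and the usual marker of myofibroblasts, had 74.0 and 69.7 CPM in CD9-low and 109 and 138 CPM in CD9-high (log2 fold change 0.78, SE 0.26, adjusted p = 1, edgeR). Tpm2, a tropomyosin, had 25.4 and 34.5 CPM against 44.6 and 93.8 CPM, and Csrp1, an actin-bundle protein, had 82.5 and 59.97 CPM against 114 and 126 CPM. CD29 libraries stood far above both gates, with Acta2 at 1292 and 1499 CPM. Without the second CD9-high library the median of the list was 0.12. The summed level of pericyte and smooth muscle markers overlapped between the gates, at 314 and 462 CPM against 351 and 554 CPM.

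In the list of TGF-beta and BMP signalling, 11 of 36 members were higher (30.6%) and 2 lower, and the other 23 overlapped. The median was 0.31, or 0.21 with genes at 0 in both libraries of a gate bounded by the floor of 3 counts. Ltbp4, which holds latent TGF-beta in the matrix, had 2.02 and 3.22 CPM in CD9-low and 16.9 and 12.6 CPM in CD9-high (log2 fold change 2.49, SE 0.74, adjusted p = 1, edgeR). The ligand genes Tgfb1 and Tgfb3 had 9.17 and 7.77 CPM against 15.9 and 17.8 CPM, and 16.1 and 12.8 CPM against 29.1 and 21.5 CPM. Ltbp1, another latency protein, lay lower, at 46.3 and 62.9 CPM against 28.8 and 42.5 CPM. Fst, follistatin, an inhibitor of activins, had 232 and 195 CPM against 177 and 192 CPM.

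In the WNT list, 13 of 36 members were higher (36.1%) and 2 lower, with a median of 0.43. Secreted inhibitors led by level: Sfrp2 had 1987 and 1818 CPM in CD9-low and 2483 and 2209 CPM in CD9-high, and Sfrp4 had 290 and 326 CPM against 371 and 469 CPM. The ligand Wnt5a had 7.49 and 4.02 CPM against 11.1 and 11.4 CPM. Wnt10b, a ligand that holds back fat cell formation, was at 0 in both CD9-low libraries and at 0.955 and 3.03 CPM in CD9-high. Rspo3, which strengthens WNT signals, lay lower, at 7.00 and 17.2 CPM against 4.20 and 4.68 CPM.

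Growth factors and their receptors were split, with 11 of 42 higher (26.2%) and 10 lower (23.8%). Vegfc, the growth factor of lymphatic vessels, had 1.95 and 0.421 CPM in CD9-low and 12.2 and 8.55 CPM in CD9-high (log2 fold change 3.12, SE 0.74, adjusted p = 0.84, edgeR). Vegfd, its relative, lay the other way at 177 and 133 CPM against 115 and 95.8 CPM. Fgf2 had 10.1 and 13.5 CPM against 3.36 and 2.95 CPM.

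Chemokines and cytokines were split evenly, with 12 of 40 higher and 12 lower (30% each). Saa3, Ccl11, Il6 and Il33 were among the abundant members that lay lower in CD9-high cells. Saa3, an acute phase protein, had 3899 and 3431 CPM in CD9-low and 1842 and 1671 CPM in CD9-high (log2 fold change -1.06, SE 0.32, adjusted p = 1, edgeR). Ccl11, the eosinophil attractant eotaxin, had 193 and 352 CPM against 104 and 172 CPM, and Il6 had 569 and 603 CPM against 408 and 445 CPM. In CD29 libraries Saa3 was at 395 and 161 CPM.

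Cxcl12 and Cxcl13, which guide leukocytes into tissue, were lower without overlap but uneven within a gate. Cxcl12 had 76.6 and 392 CPM in CD9-low and 63.7 and 42.7 CPM in CD9-high. Cxcl13 had 238 and 63.1 CPM against 43.7 and 9.16 CPM. In both genes 1 CD9-low library was far above the other.

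Cytokines that lay higher in CD9-high cells included Tnf, at 24.0 and 21.0 CPM against 46.7 and 50.6 CPM, Il1b, at 240 and 223 CPM against 356 and 345 CPM, and Ccl9, at 62.3 and 39.8 CPM against 107 and 97.5 CPM. All 3 are typical of macrophages and were highest in DN libraries, where Il1b reached 1832 and 1038 CPM. The macrophage sum was higher in the same libraries, and its part was not tested. Cxcl14, a chemokine of stroma and epithelium, also lay higher, at 75.0 and 27.2 CPM against 131 and 94.2 CPM, and was lower in CD29 and DN libraries than in CD9-high.

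Complement genes lay in both directions. Of 19 members, 7 were higher (36.8%) and 8 lower (42.1%) without overlap. C3, the central component, had 1975 and 1545 CPM in CD9-low and 1016 and 729 CPM in CD9-high (log2 fold change -1.01, SE 0.36, adjusted p = 1, edgeR). C4b had 852 and 629 CPM against 470 and 345 CPM. Serping1, the inhibitor of the C1 proteases, had 3219 and 3091 CPM against 2229 and 1999 CPM. C1ra, C1s1, C2 and Cfb lay lower without overlap too, and the summed level was 9130 and 8468 CPM in CD9-low and 6284 and 5852 CPM in CD9-high, a ratio of the means of 0.69.

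The members that lay higher were C1qa, C1qb and C1qc, Cfp, the receptors C3ar1 and C5ar1, and Masp1 near 0. C1qa had 55.3 and 68.8 CPM in CD9-low and 134 and 131 CPM in CD9-high (log2 fold change 1.10, SE 0.30, adjusted p = 0.96, edgeR). The 3 C1q genes also belong to the macrophage list, whose sum was higher in the same libraries. Its part was not tested. Without the first CD9-low library or without the second CD9-high library, the median of the list was 0.042 or 0.032 in place of -0.27.

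Interferon response genes held 0 of 34 higher and 9 lower (26.5%), with a median of -0.19. Oasl2 had 93.1 and 137 CPM in CD9-low and 92.5 and 38.5 CPM in CD9-high. The second CD9-low library was highest for this gene, and without it the median of the list was 0.10. The summed level overlapped, at 1666 and 2476 CPM against 1501 and 1970 CPM.

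The remaining role lists lay nearer the background. Immediate early genes, which respond to the handling of cells, held 4 of 28 higher and 4 lower (14.3% each), and Fos had 3493 and 3589 CPM in CD9-low and 3290 and 3074 CPM in CD9-high. Cell cycle genes held 6 of 40 higher (15%) and 3 lower, and their summed level was 1528 and 1583 CPM against 1614 and 1602 CPM. Integrins and other adhesion genes held 7 of 32 higher (21.9%) and 2 lower, with Itgb3 at 15.7 and 21.0 CPM against 35.8 and 30.3 CPM. Glycolysis genes held 5 of 29 higher (17.2%) and 2 lower, cholesterol synthesis 3 of 24 higher (12.5%) and 5 lower, and secretory stress 3 of 23 higher (13%) and 1 lower. Fibroblast transcription factors held 5 of 29 higher (17.2%) and 3 lower, and Hox genes 6 of 28 higher (21.4%) and 3 lower.

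Some genes were seen in 1 gate alone. At a level over 2 CPM in both libraries of a gate and 0 in both of the other, 14 of 18394 genes were found in CD9-high and 4 in CD9-low. Over 2 CPM in 1 library and 0 in its replicate were 204 genes in CD9-high and 426 in CD9-low. This looser rule uses 1 library a side, so its counts cannot be set against 14 and 4. At over 5 CPM in 1 library and 0 in the other, replicates had 27 and 41 genes in CD9-low and 21 and 11 in CD9-high. Pairs of libraries that crossed the gate had 10 to 55 such genes in each direction. A 0 in these libraries is therefore weak evidence of absence. Tnmd, tenomodulin, a membrane protein of tendon, was at 0 in both CD9-low libraries and at 5.54 and 4.76 CPM in CD9-high (adjusted p = 0.84, edgeR). Against the floor of 3 counts over the group this was 90.7-fold. Lepr, the leptin receptor, was at 0 against 3.71 and 2.57 CPM, or 55.3-fold against the same floor. The floor covers counting error only, and replicates differed by more than that, so neither fold is a lower limit. EdgeR called none of these 18 genes, each of which had an unadjusted p under 0.05. DESeq2 called 7 of them: Tnmd (adjusted p = 6.18e-05), Cma1, Pcdhgb1, Fgd6, Scarf1 and Cd244a, seen in CD9-high, and Zfp65, seen in CD9-low.

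The 4 called genes kept their sign in all 21 other ways of processing that were run. Rac1 was called in 18 of them, Pcdhgc4 in 14, Cilp in 10 and Cd9 in 8. With all 4 AP libraries kept, the number of called genes ran from 0 to 4 with edgeR. DESeq2 called 60 genes, 48 higher and 12 lower, among them the same 4. Of these 60, 28 were at 0 in both CD9-low libraries and 9 at 0 in both CD9-high libraries. With the 4 AP libraries fitted alone, edgeR called 0 genes, with 803 at an unadjusted p under 0.05, and without the second CD9-low library it called 0, with 830 at an unadjusted p under 0.05.

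**Figure D5:**
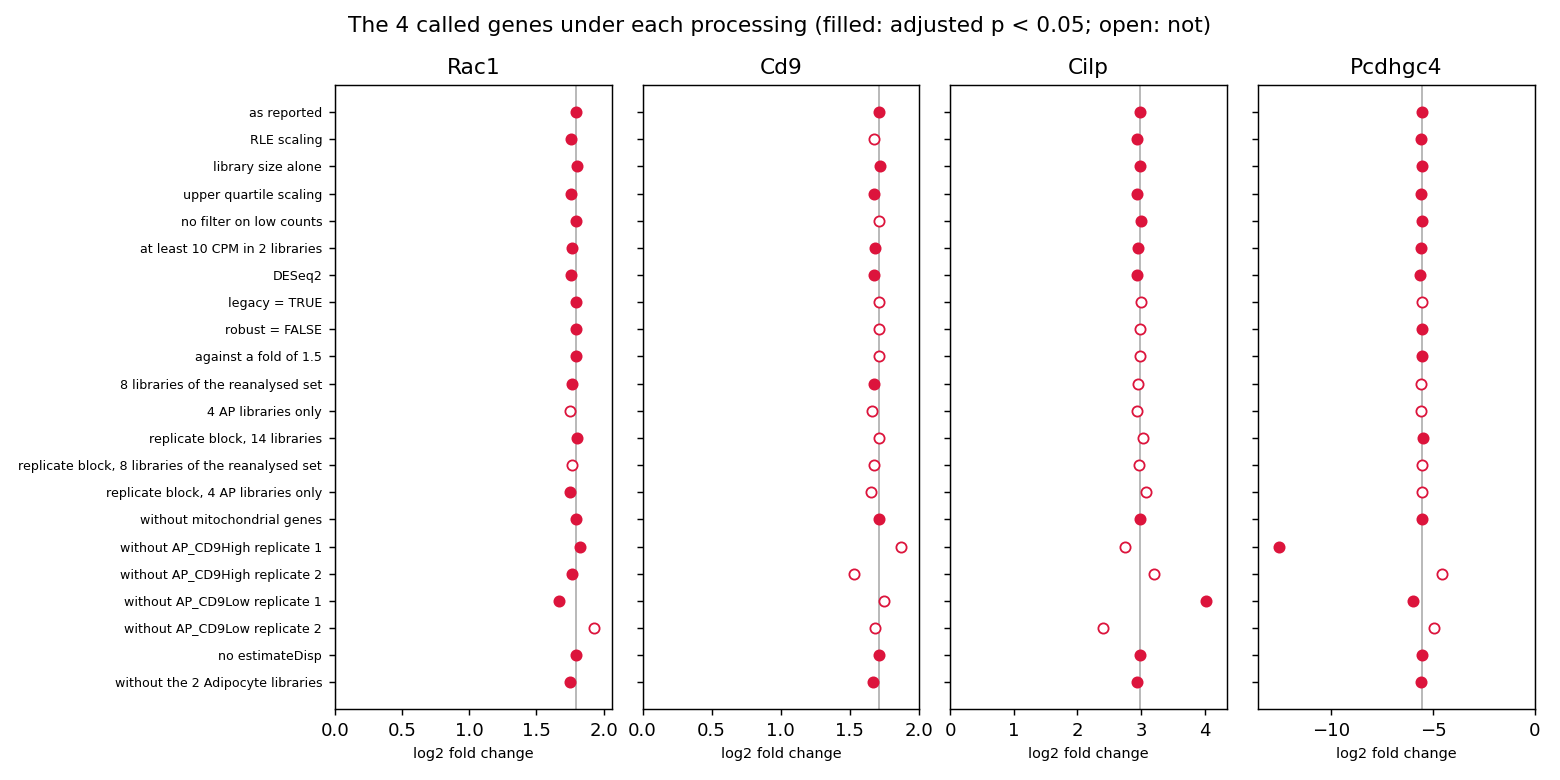
Log2 fold change of the 4 called genes (x axes, each panel with its own range) as reported and under 21 other ways of processing (rows). Filled points have an adjusted p under 0.05 and open points do not; the grey line marks the value as reported. Rac1 lies between 1.67 and 1.93 throughout, and Cd9 between 1.53 and 1.88.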

How the data were processed

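RNA of sorted cells was sequenced. The labels' protocols name a kit for very small amounts of RNA (SMARTer Ultra Low) for library preparation. In the submitters' processing notes the tools are CASAVA 1.8.2, HISAT2 2.1 and StringTie 1.3.3b, DESeq2 without a version, and mm10 as the build; the notes do not say what each was used for. The authors deposited whole-number counts per gene, not normalised, for 52636 genes. Symbols came from GENCODE M21 (mm10) and matched 52489 of them. 0 columns belonged to other samples.

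Genes were tested with edgeR 4.0.16 in R 4.3.3 (quasi-likelihood, two-sided, robust, TMM scaling, filterByExpr). All 14 libraries entered, with 1 coefficient for each of 7 groups (7 residual degrees of freedom, prior 9.7), so the AP libraries borrowed their spread from the other groups. Benjamini-Hochberg adjustment ran over 18394 genes. SE is approximate, from the fold change and its F statistic. Floors of 3 counts cover counting error only, and reads without molecular identifiers are not independent molecules. The scripts were tested on simulated data.

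The comparison and the gene lists were chosen with earlier results of these data known. Of 905 list entries, 863 were tested. The rule named Cd9 and the usual sorting markers, up to 15 called rises and 15 called falls with at least 10 CPM in an AP group and no overlap between libraries, up to 3 called members of each list or else its member with the smallest p, and members given where their list is described. Not every gene so named is printed. DESeq2 1.42.0, other scalings, filters and fits, a replicate block and leaving out each AP library were tried. 2 alternatives, without estimateDisp and without the 2 Adipocyte libraries, were chosen after seeing the data.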

Additional observations from a re-analysis of the deposited data

How the results depend on the processing

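The 4 called genes became 3 with RLE scaling or without a filter, 4 with library size alone, upper quartile scaling or a filter at 10 CPM, and 60 with DESeq2. Calls numbered 2 with legacy = TRUE, with robust = FALSE, against a fold of 1.5 and in the fit of the 8 reanalysed libraries, and 0 in the fit of the 4 AP libraries alone (803 at an unadjusted p under 0.05). Leaving out 1 AP library gave 0 to 5, the 0 without the second CD9-low library. Called list members, 1 as reported, numbered 8 with DESeq2, 0 to 1 when 1 library was left out, and 0 with RLE scaling, no filter, legacy = TRUE, robust = FALSE, a fold of 1.5 and the 4 AP libraries alone. The cause was not tested. Without 1 library, the median ranged from 0.0195 to 0.19 for interstitial matrix, from 0.12 to 0.41 for contractile genes and from -0.23 to 0.042 for complement.

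The labels do not say whether same-numbered AP libraries are pairs. Their deviations from their group means correlated at 0.0922 over 12153 genes, and at 0.141 over genes with a mean of at least 10 CPM. With 2 libraries a gate, these values can neither establish nor exclude pairs. With the replicate number as a block, edgeR called 3 genes over 14 libraries, 0 over 8 (881 at an unadjusted p under 0.05) and 4 over the 4 AP libraries (Saa3, Rac1, Cxcl13 and C3); called list members numbered 0, 0 and 3.

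Of 1356 values of 65 named genes under the alternatives, 13 changed sign, in Itgb1 and Pdgfra, and Itga8 came to 0 once; none of these 3 was called. Itgb1 was -0.0384 with RLE and with DESeq2, -0.0378 with upper quartile scaling, -0.0292 at 10 CPM, -0.0321 in the 8 and -0.0462 in the 4 libraries, -0.03205 and -0.0458 with the replicate block on these, -0.0432 without the Adipocyte libraries, and -0.11 to 0.11 without 1 library. Without 1 library Pdgfra ranged from -0.29 to 0.16 and Itga8 from -8.35 to 0.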

Other observations

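Markers of dendritic cells and MHC class II differed more between the 2 libraries of a gate than between the gates. Their summed level was 125 and 281 CPM in CD9-low and 149 and 398 CPM in CD9-high, and in both gates the library with the label number 4 was the higher one. In the CD29 libraries the sums were 309 CPM for number 2 and 948 CPM for number 4. Interferon response genes had the same order, at 1666 and 2476 CPM in CD9-low and 1501 and 1970 CPM in CD9-high. Whether the number marks shared animals or days is not given in the sources used here.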
